A study of Rattus norvegicus with 6 samples.

Results

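The rat mitochondrial genome was described here through the 37 genes that the deposited table places on the same sequence as mt-Rnr1, out of 22085 genes in the table. They are 13 messenger RNAs, 2 ribosomal RNAs and 22 transfer RNAs. The rule for membership used position alone, but this part was chosen with earlier results of these data known. The libraries come from cultured rat amniotic fluid cells of embryonic day 18.5 at passage 4, with 3 libraries from a preeclampsia model and 3 from control pregnancies. Preeclampsia is a pregnancy disorder with maternal hypertension. The sources used here do not give how the model was induced, the strain, or how many fetuses or animals a library holds, so p-values measure the spread between these libraries. The labels call the cells mesenchymal stem cells. The 10 mesenchymal markers summed to between 32886 and 42297 CPM (a gene's counts scaled to the library total) in preeclampsia libraries and between 24686 and 32495 CPM in control libraries. The endothelial list stayed at or under 9.19 CPM in every library. Of the mesenchymal list, 7 genes had a positive and 3 a negative log2 fold change. DESeq2 called only the growth factor receptor gene Pdgfra, as higher (edgeR adjusted p = 0.373). Pdgfra was at 225, 236 and 411 FPKM in preeclampsia libraries and 99.8, 97.7 and 116 FPKM in control libraries. Cd44 went the other way, at 321, 163 and 95.0 FPKM in preeclampsia libraries and 248, 509 and 244 FPKM in control libraries, groups that overlap.

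Mitochondrial DNA is a small circle that is read from both strands into long precursor RNAs. Transfer RNAs lie between most of the messenger and ribosomal RNAs, and their excision frees the neighbouring RNAs. The messenger RNAs encode core subunits of respiratory chain complexes I, III, IV and V, the ribosomal RNAs build the mitochondrial ribosome, and the transfer RNAs serve its translation. Most mitochondrial messenger RNAs carry short poly(A) tails. An oligo(dT) selection, as used for these libraries per the labels, can capture these, while finished transfer RNAs are short and lack such a tail. Because the genes share precursors, they are not independent measurements of a condition. In the table, 28 genes lie on the + strand, while ND6 and 8 transfer RNAs make up the 9 on the - strand. Nuclear copies of mitochondrial sequence exist in mammals, and how reads with several matches were counted is not stated in the sources used.

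All 37 genes had a lower mean CPM in the preeclampsia libraries than in the control libraries. In bulk RNA, fewer cells of a type and less RNA per cell cannot be told apart. The differences were widest for the ribosomal RNAs and many transfer RNAs and small for the messenger RNAs. Of the 35 genes that passed the filter on low counts, 35 had a negative log2 fold change, against 48.3% of all 15776 genes tested. By edgeR's quasi-likelihood test 0 of them reached an adjusted p under 0.05, and neither did any other gene (0% in both directions). At an unadjusted p under 0.05, 15 were lower, against 5.06% of all genes, and 0 were higher, against 4.13%. DESeq2 called 7 as lower, namely mt-Rnr1, mt-Rnr2, Trna, Trne, Trnk, Trnn and Trny, against 1.24% of all genes, and 0 as higher, against 0.976%. In 21 of the 35 the preeclampsia libraries all lay below the control libraries, as in 8.43% of all genes, and in 0 they all lay above, as in 6.41%. Trnf and Trnv, the transfer RNA genes for phenylalanine and valine beside mt-Rnr1, did not pass the filter, with at most 4 counts in any library. The median log2 fold change was -0.24 over the 13 messenger RNAs, -1.13 over the 2 ribosomal RNAs and -0.90 over the 20 transfer RNAs tested, against 0.01 over all genes tested.

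**Figure D1:**
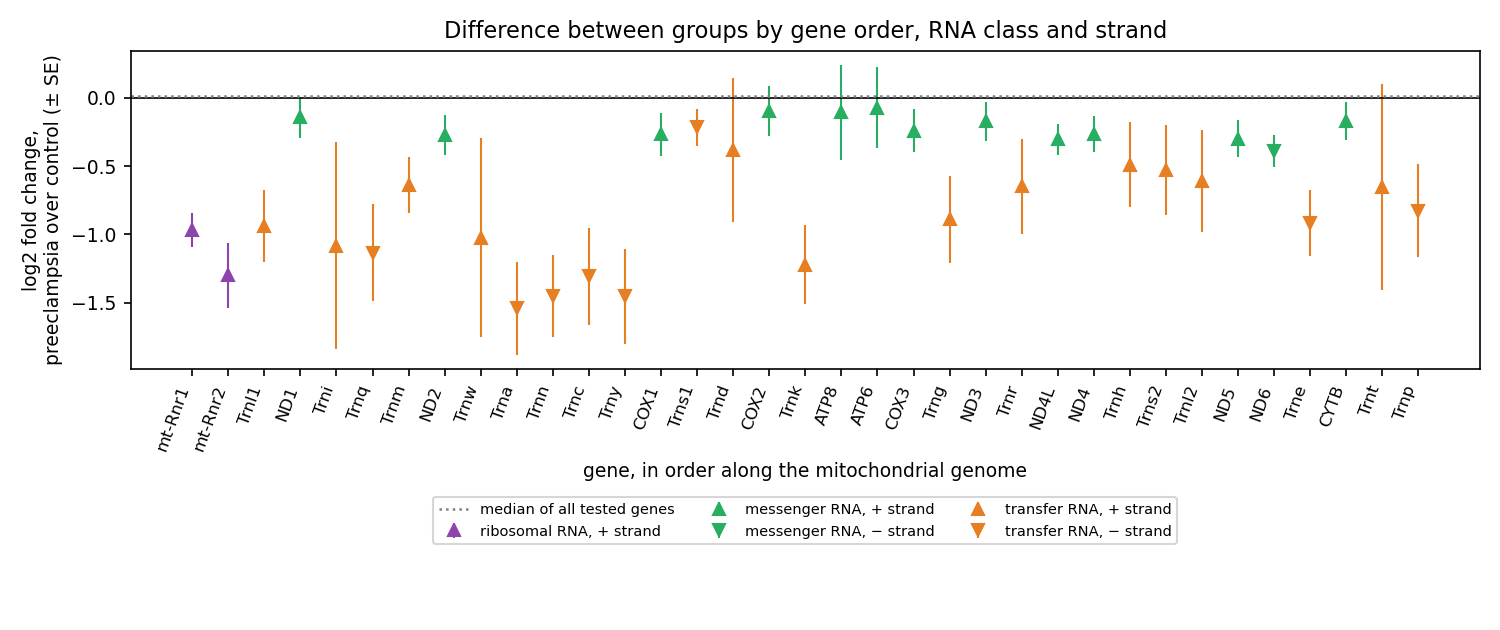
Log2 fold change of preeclampsia over control (edgeR, bars are the SE) for the 35 tested mitochondrial genes in their order along the genome, coloured by RNA class and pointing up or down by strand. All points lie below 0; messenger RNAs lie between -0.39 and -0.07 and the ribosomal RNAs at -0.97 and -1.30.

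The ribosomal RNAs stood lower in every preeclampsia library than in any control library. mt-Rnr1, the RNA of the small ribosomal subunit (positions 68 to 1025 of the mitochondrial sequence, + strand), was at 50.5, 52.5 and 57.4 CPM in preeclampsia libraries 1 to 3, against 105, 115 and 97.6 CPM in control libraries 1 to 3. Each group was tight, and the gap between the groups was wider than the range within either. Its log2 fold change was -0.97 (SE 0.12, edgeR adjusted p = 0.253), which is 1.96-fold lower, and DESeq2 gave an adjusted p of 9.75e-08. mt-Rnr2, the RNA of the large subunit (1094 to 2664, + strand), was at 104, 119.6 and 158 CPM in the preeclampsia libraries, against 364, 337 and 249 CPM in the control libraries. The lowest control library, the third, was still above the highest preeclampsia library, also the third. Its log2 fold change was -1.30 (SE 0.24, edgeR adjusted p = 0.373; DESeq2 adjusted p = 0.000333), or 2.46-fold lower.

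Other RNAs that lack a long poly(A) tail were counted in the same libraries, and some of them were lower in the preeclampsia libraries too. The 43 nuclear ribosomal RNA genes, among them Rn45s, Rn28s and Rn18s, summed to 1525, 1196 and 1311 CPM in preeclampsia libraries and to 3126, 3923 and 1500 CPM in control libraries. Control library 3 thus lay inside the preeclampsia range for this sum. Its mitochondrial ribosomal RNA, at 347 CPM, was above all 3 preeclampsia libraries, at 155, 172 and 215 CPM. As a percentage of nuclear ribosomal RNA counts, mitochondrial ribosomal RNA counts were between 10.2% and 16.4% in preeclampsia libraries. In control libraries they were between 11.5% and 23.1%, so the groups overlapped in this percentage. The nuclear genes differed among themselves. Rn18s was at 190, 173 and 151 CPM in preeclampsia libraries and 317, 528 and 221 CPM in control libraries, groups apart. LOC120102105 and LOC120099695 were apart too. Rn28s overlapped, at 205, 131 and 172 CPM in preeclampsia libraries and 477, 524 and 180 CPM in control libraries, as did Rn45s and LOC120093067. Reads of near-identical ribosomal copies cannot be placed with certainty, so the split among the nuclear copies is uncertain. LOC120093067 had nearly the counts of Rn28s in every library, such as 10247 and 10666 in preeclampsia library 1. If reads were counted in several copies, the sum and the percentage taken from it are uncertain too. The 24 histone genes with symbols starting Hist1h, Hist2h or Hist3h, whose messages largely end without a poly(A) tail, summed to 60.03, 85.4 and 77.1 CPM in preeclampsia libraries and to 121, 163 and 188 CPM in control libraries. Small nucleolar RNAs overlapped between the groups, at 63.6, 51.0 and 60.1 CPM in preeclampsia libraries and 46.4, 60.2 and 57.7 CPM in control libraries. Nuclear transfer RNA genes did too, at 1.04, 1.23 and 1.38 CPM in preeclampsia libraries and 0.988, 1.12 and 1.55 CPM in control libraries, as did small nuclear RNAs, at 2.77 to 3.57 CPM in preeclampsia libraries and 3.41 to 3.75 CPM in control libraries. The part of carry-over through the poly(A) selection in the mitochondrial ribosomal and transfer RNA values was not tested. Nor was the cause of the differences in the nuclear sums, that of the histone genes among them. These nuclear sets were chosen after the values of the mitochondrial genes had been seen.

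**Figure D2:**
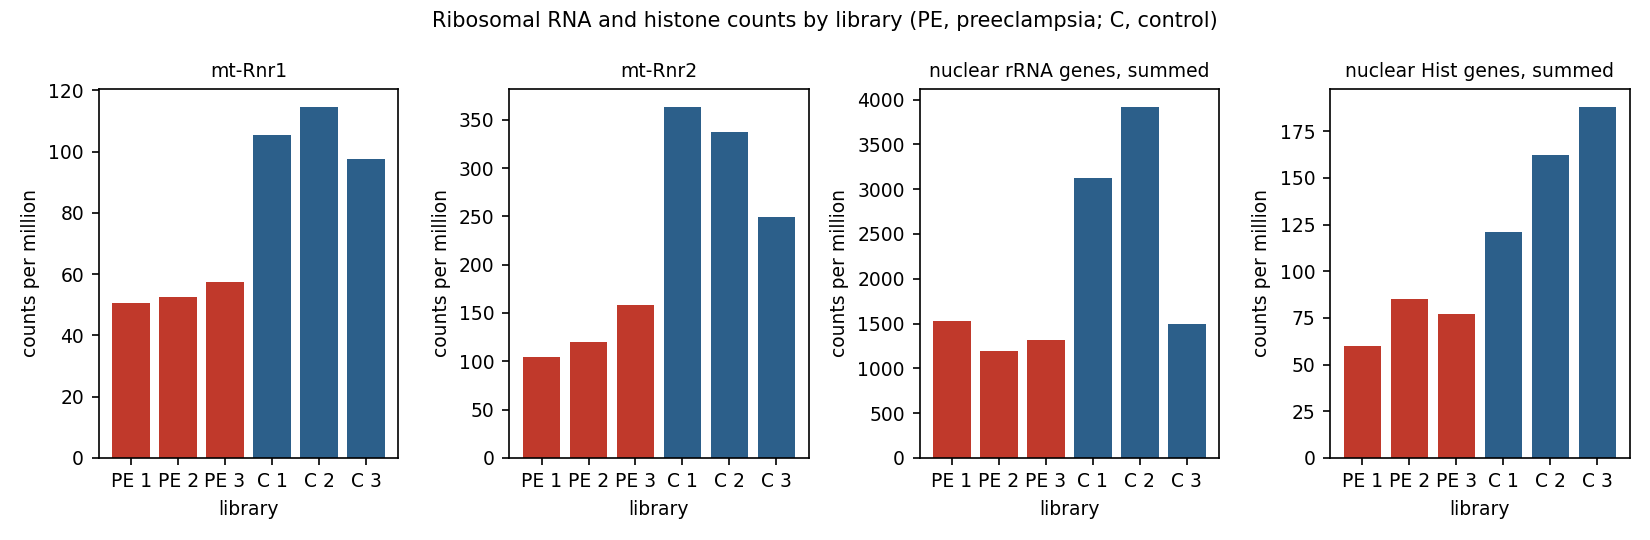
CPM per library, linear axes from 0, for mt-Rnr1, mt-Rnr2, the summed nuclear ribosomal RNA genes and the summed Hist1h, Hist2h and Hist3h genes (PE 1 to 3, preeclampsia; C 1 to 3, control). Both mitochondrial ribosomal RNAs separate the groups. For the summed nuclear ribosomal RNA genes, control library 3, at 1500 CPM, lies within the preeclampsia range of 1196 to 1525 CPM.

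Transfer RNA genes annotated on the - strand included the widest gaps of the genome. The sources do not say whether reads were counted by strand, so counts of any - strand gene, ND6 included, may hold RNA read from the + strand, and values by strand refer to the annotation. Trna, Trnn, Trnc and Trny, for alanine, asparagine, cysteine and tyrosine, sit side by side on the - strand between ND2 and COX1. Their summed level was 2.71, 2.74 and 3.80 CPM in the preeclampsia libraries and 7.48, 8.84 and 9.27 CPM in the control libraries. Trna (5010 to 5078) was at 0.558, 0.557 and 0.764 CPM in preeclampsia libraries, against 1.67, 1.74 and 2.15 CPM in control libraries. No library of either group came near the other group. Its log2 fold change of -1.54 (SE 0.34, edgeR adjusted p = 0.395; DESeq2 adjusted p = 0.00719) was the most negative of the 35. Trnn (5081 to 5152) was at 0.982, 0.997 and 1.43 CPM in preeclampsia libraries and at 2.94, 3.09 and 3.43 CPM in control libraries, a log2 fold change of -1.45 (SE 0.30, edgeR adjusted p = 0.374; DESeq2 adjusted p = 0.00115). Trny (5256 to 5321) was at 0.655, 0.574 and 0.909 CPM in preeclampsia libraries and at 1.63, 2.201 and 2.11 CPM in control libraries (log2 fold change -1.45, SE 0.35, edgeR adjusted p = 0.431; DESeq2 adjusted p = 0.0163). Trnc (5185 to 5252) was at 0.520, 0.608 and 0.702 CPM in preeclampsia libraries and at 1.23, 1.82 and 1.57 CPM in control libraries (log2 fold change -1.31, SE 0.36, edgeR adjusted p = 0.453), and DESeq2 did not call it (adjusted p = 0.059). The 8 transfer RNAs annotated on the - strand had a median of -1.22 and the 12 tested of the + strand a median of -0.65. These are sparse counts: Trna had 29, 33 and 37 counts in the preeclampsia libraries and 83, 90 and 111 in the control libraries.

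The other transfer RNAs of the - strand differed in size and in what lies beside them. Trne, for glutamate, lies between ND6 and CYTB. It was at 2.14, 2.45 and 2.42 CPM in preeclampsia libraries and at 3.83, 4.52 and 5.10 CPM in control libraries (log2 fold change -0.92, SE 0.24, edgeR adjusted p = 0.441; DESeq2 adjusted p = 0.0175). Trnp, for proline, had a log2 fold change of -0.83 (SE 0.34) and Trnq, for glutamine, -1.13 (SE 0.35), with groups that did not overlap. Trns1, a serine transfer RNA, stood apart: it was at 53.5, 61.4 and 57.1 CPM in preeclampsia libraries and at 58.7, 66.7 and 77.8 CPM in control libraries, groups that overlap. The 69-base gene meets the end of COX1 from the opposite strand and shares 3 bases with it. In human mitochondria the COX1 messenger RNA is known to run on across this transfer RNA as antisense sequence. There were between 4.28 and 4.93 Trns1 counts per 1000 COX1 counts in the preeclampsia libraries and between 4.13 and 4.60 in the control libraries. With the use of strand not known, Trns1 reads cannot be told apart from reads of COX1 that extend past its annotated end.

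On the + strand, Trnk and Trnl1 had groups that did not overlap. Trnk, for lysine, between COX2 and ATP8, was at 1.08, 1.18 and 1.12 CPM in preeclampsia libraries, against 2.46, 3.13 and 2.41 CPM in control libraries (log2 fold change -1.22, SE 0.29, edgeR adjusted p = 0.410; DESeq2 adjusted p = 0.0084). Trnl1, for leucine, directly follows mt-Rnr2. It was at 4.12, 6.18 and 6.74 CPM in preeclampsia libraries and at 11.9, 11.6 and 9.58 CPM in control libraries, a log2 fold change of -0.94 (SE 0.27, edgeR adjusted p = 0.458; DESeq2 adjusted p = 0.0668). Preeclampsia library 1 was the lowest and control library 1 the highest, the same order that mt-Rnr2 showed.

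Trnh, Trns2 and Trnl2, for histidine, serine and leucine, form a run of neighbours between ND4 and ND5, and control library 2 was high in all 3. Trnh was at 3.50, 4.09 and 4.30 CPM in preeclampsia libraries and at 4.68, 8.03 and 4.27 CPM in control libraries. Without control library 2, the log2 fold change was -0.16 for Trnh, -0.19 for Trns2 and -0.20 for Trnl2, in place of -0.49, -0.53 and -0.61, so that library decides the size of these values. Trnr, for arginine, was likewise -0.65 with it and -0.32 without it. The groups of Trnr, Trns2 and Trnl2 were apart in CPM and overlapped after TMM scaling. Trng (glycine) and Trnm (methionine) had non-overlapping groups and log2 fold changes of -0.89 (SE 0.32) and -0.64 (SE 0.21).

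The sparsest transfer RNAs tested, Trni (isoleucine), Trnw (tryptophan), Trnt (threonine) and Trnd (aspartate), all overlapped between the groups. Trni was at 0.116, 0.541 and 0.207 CPM in preeclampsia libraries and at 0.323, 1.02 and 0.563 CPM in control libraries. Its highest value in each group was in the library numbered 2, as for Trnw and Trnt. With 6 to 53 counts per library, a log2 fold change of -1.08 carried an SE of 0.76 and ran from -1.95 to -0.57 when libraries were left out in turn.

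**Figure D3:**
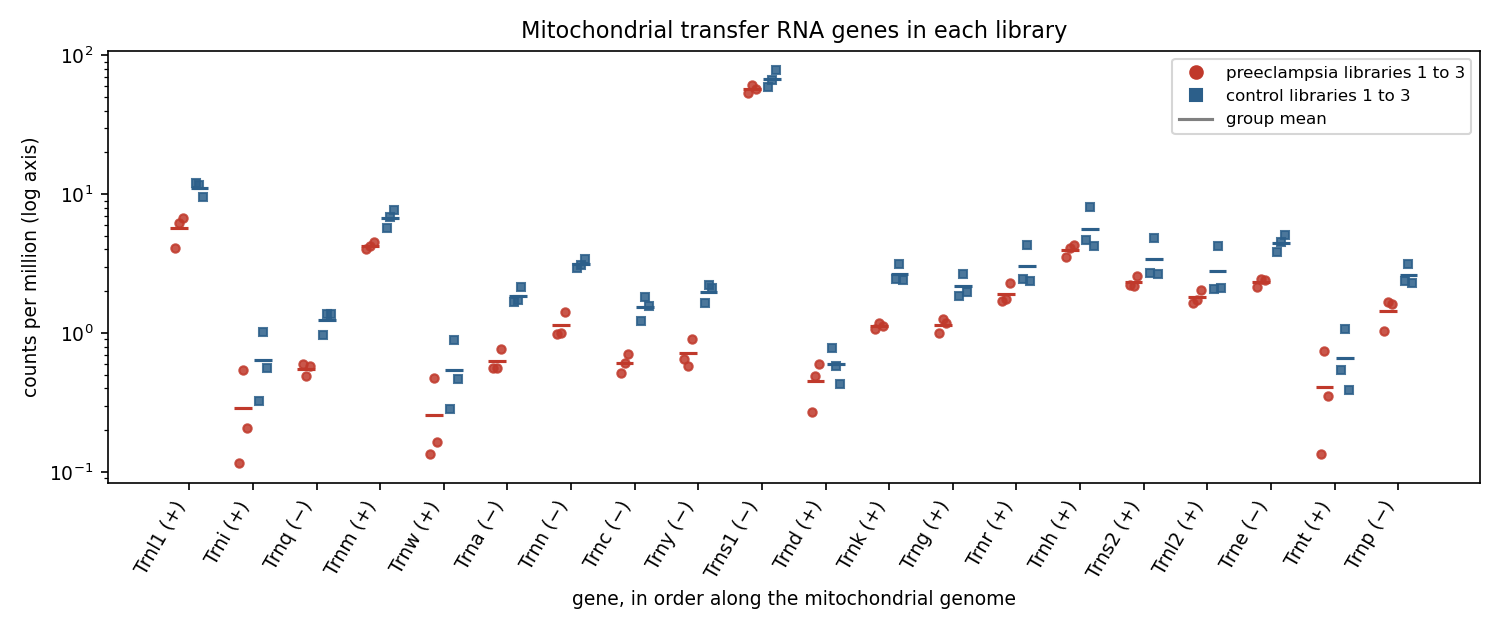
CPM on a log axis of the 20 transfer RNA genes with a mean of at least 10 counts, in genome order with their strand, for each preeclampsia (circles) and control (squares) library, lines marking group means. Trns1 lies far above the rest with overlapping groups, and Trna, Trnn, Trnc and Trny show a gap between the groups.

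Messenger RNAs made up 99.3%, 99.1% and 99.0% of the mitochondrial counts in preeclampsia libraries and 98.4%, 98.4% and 98.7% in control libraries. COX1, the catalytic subunit of cytochrome c oxidase (complex IV), had the highest level per length of the 37 genes, at 8968 CPM per kilobase averaged over all libraries. The next were COX3 at 3633, ATP8 at 3420 and CYTB at 3115, and ND3 was the lowest messenger RNA at 193, with ND6 at 459 and the remaining messenger RNAs between 1070 and 2526. These levels use the span of each gene in the table. The deposited FPKM, which is scaled to length and depth, was not used for this, since the length it implies ran from 0.410 to 148 times the span over 36 genes and was 14.3 times the span for ND1.

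**Figure D4:**
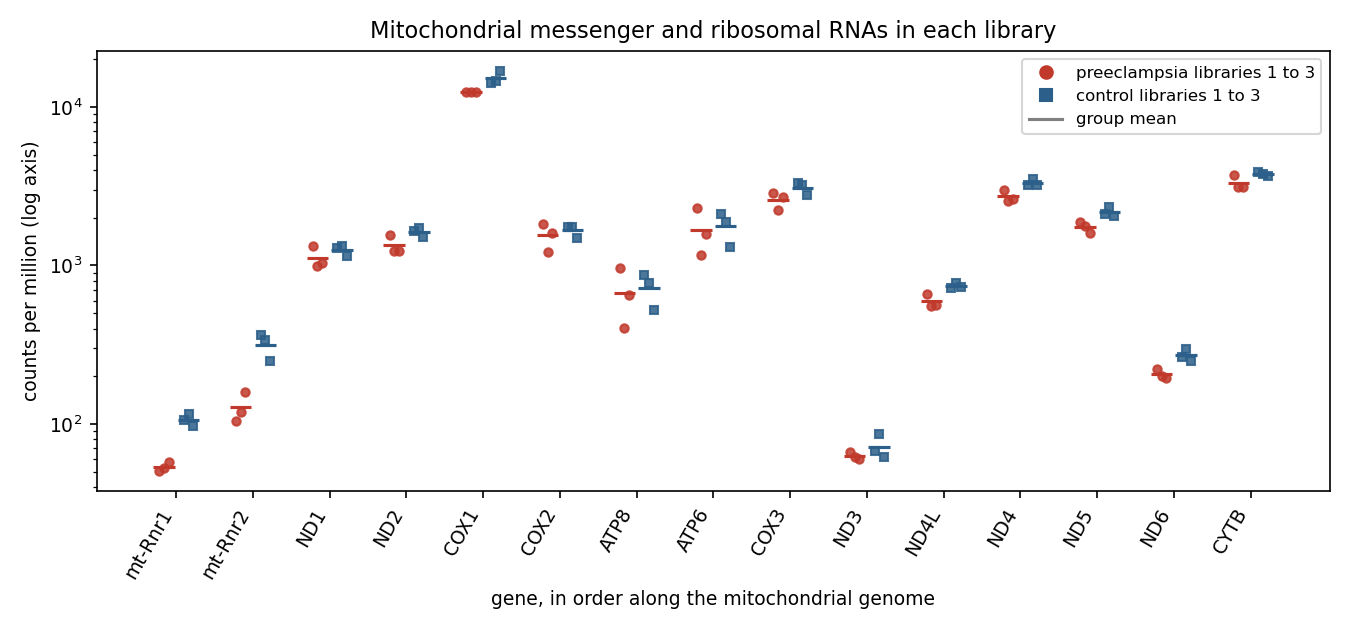
CPM on a log axis of the 2 ribosomal and 13 messenger RNAs in genome order, for each preeclampsia (circles) and control (squares) library, lines marking group means. COX1 is the highest in every library, and the groups are apart for the ribosomal RNAs but close for the messenger RNAs.

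Of the complex IV messenger RNAs, COX1 was nearly level among the preeclampsia libraries, at 12484, 12451 and 12495 CPM, against 14197, 14599 and 16906 CPM in the control libraries. Every preeclampsia library was below every control library, yet the log2 fold change was -0.27 (SE 0.16, edgeR adjusted p = 0.678). COX2, which holds the copper centre that receives electrons from cytochrome c, was at 1830, 1213 and 1592 CPM in preeclampsia libraries and at 1751, 1753 and 1484 CPM in control libraries. The groups overlapped, and the log2 fold change of -0.10 (SE 0.18) became 0.03 without preeclampsia library 2. COX3 was at 2879, 2233 and 2695 CPM in preeclampsia libraries and 3295, 3194 and 2795 CPM in control libraries (-0.24, SE 0.16, edgeR adjusted p = 0.724).

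The 7 complex I messenger RNAs, which encode its proton-pumping membrane arm, had log2 fold changes from -0.39 to -0.14. ND6, the only messenger RNA annotated on the - strand (13543 to 14061), was at 222, 199.5 and 194 CPM in preeclampsia libraries, against 266, 299 and 250.1 CPM in control libraries. The groups did not overlap, and its log2 fold change of -0.39 (SE 0.12, edgeR adjusted p = 0.470) was the most negative of the 13. ND4L was at 662, 556 and 566 CPM in preeclampsia libraries, against 721, 774 and 730 CPM in control libraries (-0.30, SE 0.11, edgeR adjusted p = 0.505). ND4, which shares 7 bases with ND4L and is carried on the same messenger RNA, was at 3008, 2537 and 2631 CPM in preeclampsia libraries and 3196, 3526 and 3220 CPM in control libraries (-0.27, SE 0.13, edgeR adjusted p = 0.621). ND5 also had groups apart, at 1866, 1767 and 1606 CPM in preeclampsia libraries and 2112, 2349 and 2054 CPM in control libraries (-0.30, SE 0.13, edgeR adjusted p = 0.575). ND1, ND2 and ND3 overlapped between the groups, with log2 fold changes of -0.14, -0.27 and -0.17 and SEs of 0.15, 0.15 and 0.14.

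CYTB, the one mitochondrially encoded subunit of complex III, was at 3732, 3146 and 3127 CPM in preeclampsia libraries and 3884, 3799 and 3674 CPM in control libraries (-0.17, SE 0.14, edgeR adjusted p = 0.781). Preeclampsia library 1 reached into the control range. The complex V messenger RNAs ATP6 and ATP8, which overlap by 43 bases and share a transcript, varied most within groups. ATP6, the subunit that forms the proton channel with the rotor ring, was at 2294, 1164 and 1577 CPM in preeclampsia libraries and 2098, 1887 and 1302 CPM in control libraries. ATP8, its small partner in the membrane part, was at 969, 403 and 647 CPM in preeclampsia libraries and 871, 775 and 521 CPM in control libraries. In both genes preeclampsia library 2 and control library 3 were the lowest of their groups, and the log2 fold changes were -0.07 (SE 0.30) and -0.11 (SE 0.35). Their signs turned without preeclampsia library 2 (0.12 and 0.14) and without control library 1 (0.11 and 0.09).

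The summed mitochondrial share of all counts was 3.314%, 2.822% and 2.977% in the preeclampsia libraries, against 3.597%, 3.667% and 3.614% in the control libraries. The groups did not overlap, with means of 3.04% ± 0.252 and 3.63% ± 0.0367 (SD, n = 3 each). Preeclampsia library 1 held the highest value of its group in 12 of 13 messenger RNAs, the exception being COX1. In that library the 8 markers of the G2 and M phases summed to 1330 CPM, against 266 and 280 CPM in preeclampsia libraries 2 and 3 and 484, 728 and 269 CPM in control libraries. The sum of the markers of macrophages and blood cells overlapped, at 39.4, 594 and 339 CPM in preeclampsia libraries and 189, 154 and 36.6 CPM in control libraries. Of these 8 genes, 7 had a positive log2 fold change (median 0.87), against 51.7% of all genes tested. None was called by edgeR or DESeq2. The sum of the epithelial list, of which 5 of 5 genes were in the table, did follow the groups. It was 0.655 to 2.28 CPM in preeclampsia libraries and 7.18 to 77.2 CPM in control libraries. The 2 tested genes of that list, Krt8 and Krt18, keratins of simple epithelia, were lower in preeclampsia by DESeq2 and not called by edgeR. Krt8 overlapped between the groups, at 0.40, 1.22 and 1.35 FPKM in preeclampsia libraries and 1.12, 37.4 and 8.41 FPKM in control libraries. Krt18 did not, at 0.05, 0.20 and 0 FPKM in preeclampsia libraries and 0.48, 17.15 and 4.38 FPKM in control libraries. Of the others, Krt19 was listed at 0 FPKM in all preeclampsia libraries and Epcam in all control libraries and 2 preeclampsia libraries. Cdh1 overlapped, at 0, 0.04 and 0.08 FPKM in preeclampsia libraries and 0.10, 0.07 and 0 FPKM in control libraries. The part of cell make-up in the mitochondrial values was not tested.

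Ratios between mitochondrial genes within a library do not depend on how libraries are scaled, and 6 were compared by an exact two-sided permutation test. With 3 libraries a group its smallest possible p is 0.1. COX1 over mt-Rnr2, a messenger over a ribosomal RNA, was 119.6, 104 and 79.1 in preeclampsia libraries and 39.0, 43.3 and 67.8 in control libraries. The groups did not overlap, and the log2 difference of 1.03 reached that smallest p (exact p = 0.1, adjusted p = 0.3 over the 6). The part of carry-over through the poly(A) selection in this ratio was not tested. ND6 over ND5, which are annotated on opposite strands and overlap by 23 bases, need not compare RNA of the 2 strands. It was 0.119, 0.113 and 0.121 in preeclampsia libraries and 0.126, 0.127 and 0.122 in control libraries, a log2 difference of -0.09 (exact p = 0.1, adjusted p = 0.3). mt-Rnr2 over mt-Rnr1 overlapped, at 2.07, 2.28 and 2.75 in preeclampsia libraries and 3.45, 2.94 and 2.56 in control libraries (exact p = 0.2, adjusted p = 0.3). ND4 over ND4L stayed between 4.54 and 4.65 in preeclampsia libraries and between 4.41 and 4.56 in control libraries (exact p = 0.2, adjusted p = 0.3). For ATP6 over ATP8 and for CYTB over ND1 the log2 differences were 0.06 and -0.02 (exact p = 0.8 and 0.7, adjusted p = 0.8 each).

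Nuclear genes for the same complexes ran the other way in sign, though none was called by edgeR or DESeq2. Of 73 tested nuclear subunits of complexes I, III, IV and V, 63 had a positive log2 fold change, with a median of 0.13, against 51.7% positive among all genes tested. In complex IV it was 12 of 12 (median 0.15), in complex V 15 of 16 (0.15), in complex I 30 of 36 (0.11) and in complex III 6 of 9 (0.11). Control library 3 lay within or above the preeclampsia range in the summed level of each of these complexes. For complex V the sums were 1665, 1725 and 1579 FPKM in preeclampsia libraries and 1417, 1476 and 1737 FPKM in control libraries. In CPM they were 1853, 1754.5 and 1606 in preeclampsia libraries and 1513, 1538 and 1764 in control libraries. By CPM control library 3 thus lay within the complex V range, not above it. For complex I the sums were 935, 1026 and 902 FPKM in preeclampsia libraries and 810.4, 858 and 990.0 FPKM in control libraries. In a setting chosen after seeing the data, without preeclampsia library 2, the median over these complexes was 0.03, with 47 of 74 positive, and without control library 3 it was 0.21, with 69 of 74 positive. Complex II, which has no subunit in the mitochondrial genome, had 3 of 4 (0.14). One gene of these, Ndufa11, had an unadjusted p under 0.05, as had 4.13% of all genes in the higher direction. Ndufa11, an accessory subunit of complex I, was at 46.8, 56.9 and 47.5 FPKM in preeclampsia libraries and 31.7, 39.0 and 39.0 FPKM in control libraries (log2 fold change 0.49, SE 0.16, edgeR adjusted p = 0.473). Ndufb7 of complex I was at 0.37 (SE 0.19), and Ndufb8, with the highest mean FPKM of that list, at 0.16 (SE 0.12). Cox6c of complex IV had a log2 fold change of 0.26 (SE 0.15), Uqcrh of complex III 0.21 (SE 0.15), Atp5mf of complex V 0.35 (SE 0.18) and Sdha, the flavoprotein of complex II, 0.17 (SE 0.11). Cox7b, Cox4i2 and Cox6a1 of complex IV were at 0.33, 1.198 and 0.12 (SE 0.20, 0.70 and 0.23), Sdhd and Sdhc of complex II at 0.22 and 0.11 (SE 0.16 and 0.11), and Uqcrfs1 and Cyc1 of complex III at 0.11 and 0.12 (SE 0.12 and 0.14). In complex V, Atp5mk and Atp5po were at 0.27 and 0.16 (SE 0.18 and 0.12). Atp5f1b, of the catalytic head of complex V, had the highest mean FPKM of the complex V list. It was at 502, 434 and 410 FPKM in preeclampsia libraries and 406, 402 and 458 FPKM in control libraries, groups that overlap.

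**Figure D5:**
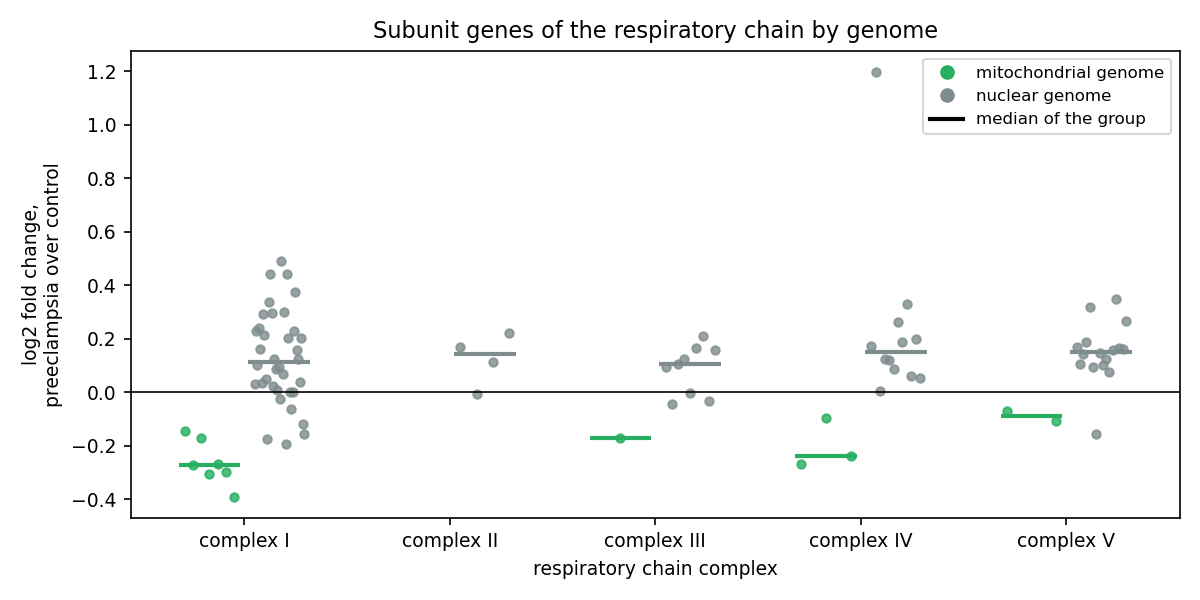
Log2 fold change of preeclampsia over control for tested subunit genes of complexes I to V, mitochondrially encoded (green) left of nuclear (grey), lines marking medians. The mitochondrial medians of complexes I, III, IV and V lie between -0.27 and -0.09 and the nuclear medians between 0.11 and 0.15.

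The nuclear genes that make, process and translate mitochondrial RNA were near balance. In transcription and DNA replication, 7 of 18 genes had a positive and 11 a negative log2 fold change (median -0.02). Mterf3, which binds mitochondrial DNA and in mouse restrains its transcription, was at 8.64, 6.51 and 6.70 FPKM in preeclampsia libraries and 9.04, 10.6 and 11.2 FPKM in control libraries (-0.48, SE 0.15, edgeR adjusted p = 0.471). Every preeclampsia library was below every control library. Twnk, the replicative helicase, had a log2 fold change of -0.19 (SE 0.13), Mterf2 -0.77 (SE 0.40) and the transcription factor gene Tfb2m -0.20 (SE 0.21). In RNA processing and stability, 12 of 32 were positive and 20 negative (median -0.03), led by Hsd17b10, a part of the enzyme that cuts the 5′ ends of transfer RNAs, at 0.26 (SE 0.15). Pde12, which removes poly(A) tails, was at -0.27 (SE 0.17), Fastkd2 at -0.21 (SE 0.15) and Trmt5, a transfer RNA methyltransferase, at 0.01 (SE 0.16). Among 14 translation factors tested, 8 were positive and 6 negative (median 0.04). Mrrf, the ribosome recycling factor, was at 12.1, 9.62 and 9.49 FPKM in preeclampsia libraries and 15.1, 13.8 and 15.4 FPKM in control libraries (-0.49, SE 0.14, edgeR adjusted p = 0.458), groups that did not overlap. Mtrf1l, a release factor, was at -0.26 (SE 0.24), and the elongation factor genes Tsfm and Tufm at 0.15 (SE 0.14) and 0.13 (SE 0.18). Biogenesis regulators had 7 positive and 4 negative of 11 (median 0.03), with Creb1 at 0.29 (SE 0.15), Nrf1 at 0.27 (SE 0.18) and Pprc1 at 0.25 (SE 0.18). No gene of these 4 lists was called by edgeR or DESeq2, and of their 75 tested genes only Mterf3 and Mrrf had an unadjusted p under 0.05. That is 2.67% lower, against 5.06% of all genes.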

How the data were processed

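RNA from 6 libraries was enriched on oligo(dT) beads and copied with random primers, per the labels' protocols. StringTie 2.1.6, HISAT2 2.2.1, FastQC and cutadapt 1.9 are listed, per the submitters' processing notes. The sources used here do not give the genome build, nor how strand and molecular identifiers were handled. For each gene the authors deposited counts, as whole numbers, and FPKM, per the file headers. Among counts from 1 to 15, 35.1% to 38.0% per library were multiples of 4, so small counts, those of sparse transfer RNAs among them, are taken with caution. Total counts were 48402185 to 59193961 per library. No pair of libraries was a duplicate (smallest chi-square per degree of freedom 130).

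CPM was computed from the total count of each library. All genes were tested with edgeR 4.0.16 in R 4.3.3 (filterByExpr, TMM, quasi-likelihood, group as the only term, Benjamini-Hochberg adjustment over 15776 genes, called at an adjusted p under 0.05). The median SE of a log2 fold change was 0.263. Alternatives were DESeq2 1.42.0, limma 3.58.1 on log2(FPKM + 1) and log2(FPKM + 0.1) where the mean FPKM reached 1, other scalings, no filter, a replicate block and each library left out. The members, lists and tests were chosen with earlier results of these data known. Named were all members, and from each nuclear list the 3 genes with the smallest p and the gene with the highest mean FPKM, except 1 gene that is not reported here. The scripts were tested on simulated data. Sequences of mitochondrial genes were not used here.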

Additional observations from a re-analysis of the deposited data

How the results depend on the processing

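No mitochondrial gene was called in the edgeR and limma alternatives, and 7 were called by DESeq2, with the filter and, in a setting added after seeing the data, without it. The adjusted p of those 7 genes ran from 0.109 to 0.780 in the edgeR and limma alternatives. Trny, called by DESeq2, had a mean FPKM under 1 and was not in the limma fits. The same holds for Trnq, Trnw, Trng, Trnr, Trns2 and Trnt. Over 15 alternatives, 506 of 511 gene-level values kept the negative sign, the 5 exceptions being COX2 (-0.21 to 0.034 with a library left out), ATP8 (-0.43 to 0.14) and ATP6 (-0.33 to 0.12). The messenger RNA median ran from -0.32 to -0.18 and the ribosomal RNA median from -1.26 to -1.03 with a library left out. That of the transfer RNAs ran from -1.01 to -0.65, the weakest without control library 2. The difference in mitochondrial share ran from -0.73 to -0.48 percentage points, and was -0.59 with all libraries. With a library left out, the log2 difference in ATP6 over ATP8 ran from -0.026 (without preeclampsia library 2) to 0.12 and that in CYTB over ND1 from -0.066 to 0.020 (0.020 without preeclampsia library 1 and 0.017 without control library 3). It ran from 0.88 to 1.27 for COX1 over mt-Rnr2, from -0.11 to -0.06 for ND6 over ND5, from 0.03 to 0.05 for ND4 over ND4L and from -0.45 to -0.22 for mt-Rnr2 over mt-Rnr1. The cause was not tested. The labels do not say that same-numbered libraries are paired. The correlations of their deviations from the group mean were 0.048, 0.041 and 0.010. Those numbered 1 and 2 matched their own number best in both directions, while those numbered 3 did not. With 3 libraries a group, whether same-numbered libraries share more than a number cannot be told from these values. With the replicate block 0 mitochondrial genes were called and the messenger RNA median was -0.24. No gene of the 9 lists of nuclear genes for mitochondrial functions was called under any alternative.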
